A study of Mus musculus with 2 samples.

Results

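The MYC, MAX and MXD network is a set of genes for DNA-binding proteins of the basic helix-loop-helix leucine zipper class, and its messenger RNAs were described here in differentiating mouse erythroid cells. The members were listed by symbol and not by a measured value, but earlier results of these data were known at that time. They were the 3 MYC genes Myc, Mycn and Mycl and their partner Max. The others were the 5 repressor genes Mxd1, Mxd3, Mxd4, Mxi1 and Mnt, and the second partner Mlx. All 10 symbols were found, as 10 of the 43346 genes and 37 of the 103639 transcripts in the tables. Polyadenylated RNA was sequenced from both ends in 2 libraries of G1E-ER4 cells, an immortalized male line from the postnatal stage (age given as 0 day). The cells had received 17beta-estradiol at 10 nM over 24 h. G1E-ER4 cells derive from a Gata1-null erythroid line in which GATA1 was restored as a fusion with the hormone-binding domain of the estrogen receptor, and both libraries carry this fusion, which estradiol switches on. The labels call the libraries biological replicates 1 and 2 of 1 group but list 1 shared biosample for both, and their spread may therefore be only technical. No untreated sample was analysed here, so no level reported here is a response to estradiol. With 2 libraries of 1 group, a two-sided exact sign-flip test cannot give a p below 0.5, and no p-value is reported.

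MYC proteins bind DNA only as heterodimers with MAX, at E-box sequences, and recruit coactivators that raise transcription of genes for growth, ribosome assembly and metabolism. The MXD proteins, MXI1 and MNT compete for the same partner and the same sites, and bring in the SIN3 and histone deacetylase corepressor instead. MLX stands in for MAX in part of the network, pairing with MXD1, MXD4 and MNT and with the glucose-sensing factors MondoA (gene Mlxip) and ChREBP (gene Mlxipl). In erythroid precursors MYC is known to drive proliferation and GATA1 to lower Myc, while MXD genes are generally known to be switched on as cells leave the cycle.

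The libraries held 70451042 and 13841487 estimated counts, a 5.09-fold difference in depth, and with 3 counts taken as the limit for a gene at 0, such a gene could hold up to 0.0426 CPM (counts scaled to the library total) in replicate 1 and up to 0.217 CPM in replicate 2, counting error only. Over the 5678 genes whose mean CPM reached 10, log2 TPM (the level per transcript, corrected for length and scaled to a common total) correlated at a Pearson r of 0.78 across genes, which are not independent, and the difference between the libraries had an SD of 1.38. All 9 erythroid markers reached 1 TPM in both libraries, at a summed 198669 TPM in replicate 1 and 87303 TPM in replicate 2, a sum carried by the globin genes Hbb-bs (122878 TPM in replicate 1 and 45332 TPM in replicate 2) and Hba-a1 (70454 TPM in replicate 1 and 35419 TPM in replicate 2). Klf1 and Tal1, erythroid transcription factor genes, were instead higher in replicate 2 (Klf1 at 665 TPM in replicate 1 and 2351 TPM in replicate 2, Tal1 at 408 TPM in replicate 1 and 569 TPM in replicate 2). Gata1, also among the 9, measured 3038 TPM in replicate 1 and 2940 TPM in replicate 2. These cells carry an introduced GATA1 fusion, so the Gata1 level need not reflect the lineage. Of the markers of other blood lineages, 2 of 5 for megakaryocytes, 1 of 6 for myeloid cells, 0 of 4 for lymphoid cells and 0 of 3 for mast cells reached 1 TPM in both libraries. The megakaryocyte marker Gp1ba measured 17.0 TPM in replicate 1 and 29.0 TPM in replicate 2. Itga2b, of the same list, measured 3.32 TPM in replicate 1 and 3.27 TPM in replicate 2. The myeloid marker Spi1 measured 6.24 TPM in replicate 1 and 5.90 TPM in replicate 2. Those 4 lists summed to between 0.23 and 32.7 TPM in a library, and Pf4, Csf1r, Cd3e and Cpa3 were at 0 in both. In such bulk RNA, fewer cells of a kind and less RNA per cell cannot be told apart.

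Of the 10 members, 8 reached 1 TPM in both libraries, against 17.2% of all 43346 genes. By TPM, Max was the highest and Mxd3 the lowest of the 8, and the order Max, Myc, Mnt, Mxi1, Mxd4, Mxd1, Mlx, Mxd3 was the same in both libraries. The order was not the same by estimated counts. By counts it was Max, Mxi1, Myc, Mnt, Mxd1, Mxd4, Mxd3, Mlx in replicate 1. In replicate 2 it was Max, Mnt, Mxi1, Myc, Mxd1, Mxd4, Mxd3, Mlx. Mxi1 thus stood above Myc, and Mxd1 above Mxd4, in both libraries. Mlx stood under Mxd3, at 673 against 784 counts in replicate 1 and 58 against 73 in replicate 2. The estimated count of each of the 8 genes carried a deposited posterior SD of 0 in both libraries, as for a gene whose reads are not divided with another gene. This held for 85.4% of all genes at 1 TPM in both libraries.

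**Figure D1:**
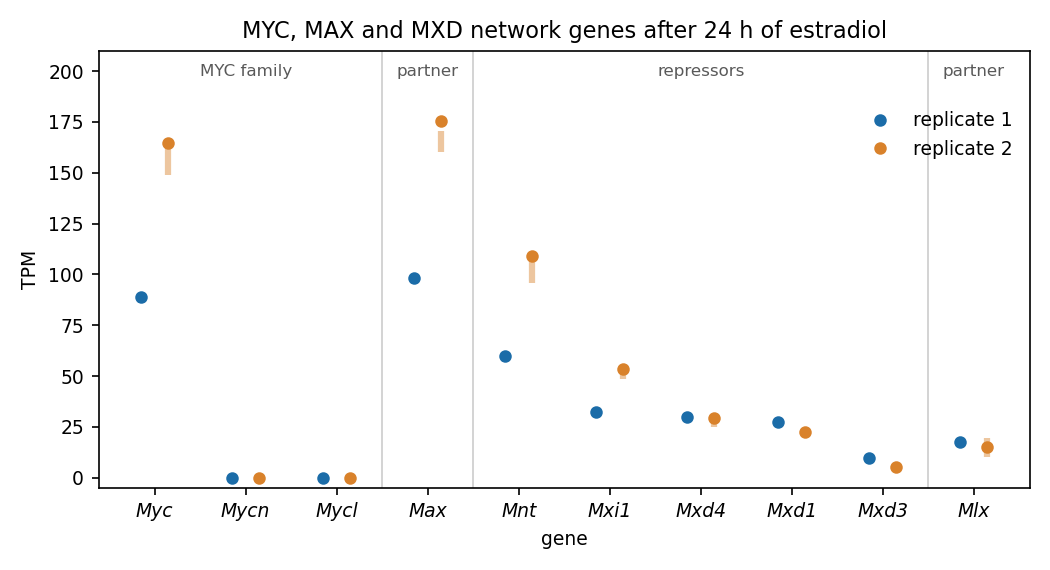
TPM of the 10 network genes (vertical axis) in each library, with replicate 1 in blue and replicate 2 in orange; thin bars are the credibility bounds deposited for each library, which are narrower than the points in replicate 1. Myc, Max, Mnt and Mxi1 lie higher in replicate 2, Mycn and Mycl lie at 0 in both, and the other members differ little between the libraries on this scale.

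Among the MYC genes, Myc alone was detected. Myc, on chromosome 15 (61985391 to 61990374, plus strand, mm10), is the member of the family active in most dividing cells, and it measured 88.9 TPM in replicate 1 (deposited bounds 85.9 to 90.1, 9608 counts) and 165 TPM in replicate 2 (148.9 to 162, 2427 counts). Its level placed it 1257th of all genes in replicate 1 and 765th in replicate 2. The deposited bounds surround a posterior mean rather than the TPM itself, so that in replicate 2 the TPM of Myc, Max, Mxi1 and Mxd1 falls just above its own upper bound, and no source used here gives the level of confidence behind the bounds. Mycn, best known in neural and other embryonic tissue, and Mycl, first found in human lung tumours, had 0 counts in both libraries. Their deposited upper bounds were 0.0949 TPM in replicate 1 and 0.541 TPM in replicate 2 for Mycn, and 0.267 TPM in replicate 1 and 1.44 TPM in replicate 2 for Mycl. In replicate 2 the upper bounds of the complete coding models were 0.0748 TPM for Mycl-201 and 0.0800 TPM for Mycl-202. The short model Mycl-204, of 386 bases, had an upper bound of 0.981 TPM. The wide bound of the gene therefore does not hold for the complete coding models.

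The Myc transcripts differ in where coding may begin. The model Myc-208 starts at a CTG codon at the end of the first exon, the upstream start that is known to give the longer MYC protein, while Myc-202 starts coding at an ATG in the second exon, 1600 bases further along the chromosome. The first 30 coding bases of Myc-208 (chr15:61985922-61985951, plus strand, mm10) are shown with the start codon in capitals, because this stretch is what the leading model codes for and Myc-202 does not.
Myc-208: CTGgatttcctttgggcgttggaaaccccg
Once spliced, Myc-208 has 42 more coding bases than Myc-202. Myc-208 held 55.9% of Myc TPM in replicate 1 (49.8 TPM) and 84.5% in replicate 2 (139 TPM), and Myc-202 held 34.9% in replicate 1 and 12.7% in replicate 2. Myc-201 and Myc-205 each held 3.95% in replicate 1 and 0.21% in replicate 2. These models have the same start, end, exon number and length and differ in the annotated coding start. Their estimated counts were equal, at 529 each in replicate 1 with posterior SDs of 343 and 338, so their separate shares were not resolved. The printed bases also lie in the first exon of Myc-202, where they are not coding. Myc-208 is thus the leading model by TPM in both libraries, but its model of 1362 bases holds the coding sequence alone, against 2186 bases for Myc-202, and TPM divides by length. As a share of estimated counts Myc-208 held 43.2% in replicate 1 and 79.1% in replicate 2, against 45.3% in replicate 1 and 19.8% in replicate 2 for Myc-202, so by counts the leading model was Myc-202 in replicate 1 and Myc-208 in replicate 2. Which start codon was used by ribosomes was not measured.

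Max, the partner that MYC proteins need to bind DNA and that MXD proteins share, measured 98.0 TPM in replicate 1 (95.2 to 98.6, 12419 counts) and 175 TPM in replicate 2 (160.0 to 171, 3642 counts). The gene lies on chromosome 12 (76937269 to 76962201, minus strand). Max exceeded Myc by 1.10 times in replicate 1 and 1.06 times in replicate 2, a log2 ratio of 0.11 ± 0.04 (SD, n = 2). The deposited bounds of Max and Myc did not overlap in replicate 1 and did in replicate 2. By TPM the gap was thus small in both libraries, but beyond the bounds in replicate 1. It was wider by TMM-scaled CPM, which is CPM with a TMM factor per library and is not divided by length. On that scale the log2 ratio of Max over Myc was 0.37 in replicate 1 and 0.59 in replicate 2. Its mean was 0.48 ± 0.15 (SD, n = 2), so the pair was close by TPM only.

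The 2 Max transcripts differ by 1 short exon of 27 bases, or 9 codons, which lies ahead of the part encoding the DNA-contacting basic region and separates the long and short MAX proteins. It is printed because it is the coding difference between the Max models (chr12:76961263-76961289, minus strand, mm10, exon 2 of Max-202).
Max-202 exon 2: gaagagcaaccgaggtttcaatctgcg
Max-201, which lacks this exon, held 57.0% of Max TPM in replicate 1 (55.9 TPM) and 62.0% in replicate 2 (109 TPM). Max-202, which has it, held 43.0% in replicate 1 (42.1 TPM) and 38.0% in replicate 2 (66.7 TPM). Both forms were therefore present in both libraries with the form lacking the exon ahead, although in replicate 2 the deposited bounds of the Max transcripts overlapped (81.5 to 120 TPM for Max-201 and 46.4 to 83.8 TPM for Max-202).

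The 5 repressor genes were all detected. Mnt, unlike most MXD genes, is known to be expressed in both dividing and resting cells. By TPM over all its transcripts it was the highest of the 5, at 59.8 TPM in replicate 1 (56.9 to 61.5, 8493 counts) and 109 TPM in replicate 2 (95.7 to 110.3, 3229 counts). Over coding transcripts alone Mnt was at 22.5 TPM in replicate 1, under Mxi1, Mxd4 and Mxd1. In replicate 2 it was at 57.3 TPM and stayed the highest. Mxi1, also called Mxd2, measured 32.2 TPM in replicate 1 (31.3 to 32.4, 11036 counts) and 53.5 TPM in replicate 2 (48.6 to 52.2, 2995 counts). Both genes were higher in replicate 2, as Myc and Max were. Mxd4 measured 29.8 TPM in replicate 1 (28.3 to 30.7, 5327 counts) and 29.4 TPM in replicate 2 (24.8 to 30.8, 595 counts), the smallest spread of any detected member by TPM. By CPM, which is not divided by length, Mxd4 was at 75.6 in replicate 1 and 43.0 in replicate 2. The near equality of the libraries therefore did not hold by CPM. Mxd1, the founding member of the MXD group, known to be switched on in terminal differentiation, measured 27.2 TPM in replicate 1 (26.4 to 27.5, 8467 counts) and 22.5 TPM in replicate 2 (20.0 to 22.4, 1138 counts). Mxd3, known for expression in the S phase of the cell cycle rather than in resting cells, was lowest at 9.63 TPM in replicate 1 (8.92 to 10.3, 784 counts) and 5.36 TPM in replicate 2 (4.17 to 6.66, 73 counts). These genes lie on chromosome 11 (Mnt, 74830920 to 74845725, plus strand), chromosome 19 (Mxi1, 53310518 to 53375810, plus strand), chromosome 5 (Mxd4, 34173883 to 34187720, minus strand), chromosome 6 (Mxd1, 86647042 to 86669161, minus strand) and chromosome 13 (Mxd3, 55325168 to 55329823, minus strand).

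Over the 2 libraries the SD ran from 0.290 TPM for Mxd4 (mean 29.6 TPM) to 54.6 TPM for Max (mean 137 TPM). Between neighbours in the order of levels, on the log2 TPM scale, Myc exceeded Mnt by 0.59 ± 0.02, Mnt exceeded Mxi1 by 0.96 ± 0.09, and Mxd4 exceeded Mxd1 by 0.26 ± 0.18 (SD, n = 2 each). Mxi1 exceeded Mxd4 by 0.49 ± 0.53, less than the spread between the libraries, with 1.08 times as much in replicate 1 and 1.82 times in replicate 2. This was the only pair of neighbours whose mean difference did not pass its SD. Mxd1 exceeded Mlx by 0.60 ± 0.06, and Mlx exceeded Mxd3 by 1.19 ± 0.46. By estimated counts, Mxd4 over Mxd1 turned in both libraries (5327 against 8467 in replicate 1 and 595 against 1138 in replicate 2). Mnt over Mxi1 turned in replicate 1 only, and Myc over Mnt in replicate 2 only. The direction of Mlx over Mxd3 turned in both libraries by estimated counts. That of Mlx over Mxd3 also turned over transcripts with a complete coding sequence, a setting chosen after seeing the data. There Mlx was at 3.45 TPM against 9.21 TPM in replicate 1 and 0.50 TPM against 5.10 TPM in replicate 2.

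The repressor genes Mxd1, Mxd3, Mxd4 and Mxi1 each have, as the third exon, a coding exon of 30 bases, or 10 codons, in the stretch that encodes the basic region, which contacts the E-box. These exons are printed because the transcripts of Mxd4 differ by this exon. Capitals mark the 17 bases that are the same in all 4 genes, and each line is read 5′ to 3′ along the gene in mm10.
Mxd4 (chr5:34184314-34184343, minus strand): gTCttcaCACAAcGAacTaGAaAAGcaCaG
Mxd1 (chr6:86663071-86663100, minus strand): aTCaactCACAAtGAaaTgGAaAAGaaCaG
Mxd3 (chr13:55328614-55328643, minus strand): gTCtgtgCACAAcGAgcTgGAgAAGcgCaG
Mxi1 (chr19:53346451-53346480, plus strand): aTCtacaCACAAtGAgtTgGAaAAGaaCcG
Over the 6 pairs, between 19 bases (Mxd1 and Mxd3) and 25 bases (Mxd1 and Mxi1) of the 30 were identical. Mxd4-201 contains the exon and Mxd4-202 does not. Mxd4-202, the model without it, held 41.6% of Mxd4 TPM in replicate 1 (12.4 TPM) and 71.2% in replicate 2 (20.9 TPM), and Mxd4-201 held 58.4% in replicate 1 (17.4 TPM) and 28.8% in replicate 2 (8.46 TPM). The leading Mxd4 model by TPM therefore changed between the libraries. The models also differ at the 3′ end and in length, 1160 bases for Mxd4-202 and 3872 for Mxd4-201, so the share does not rest on the exon alone. As a share of counts Mxd4-202 held 16.2% in replicate 1 and 40.5% in replicate 2, behind Mxd4-201 in both.

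**Figure D2:**
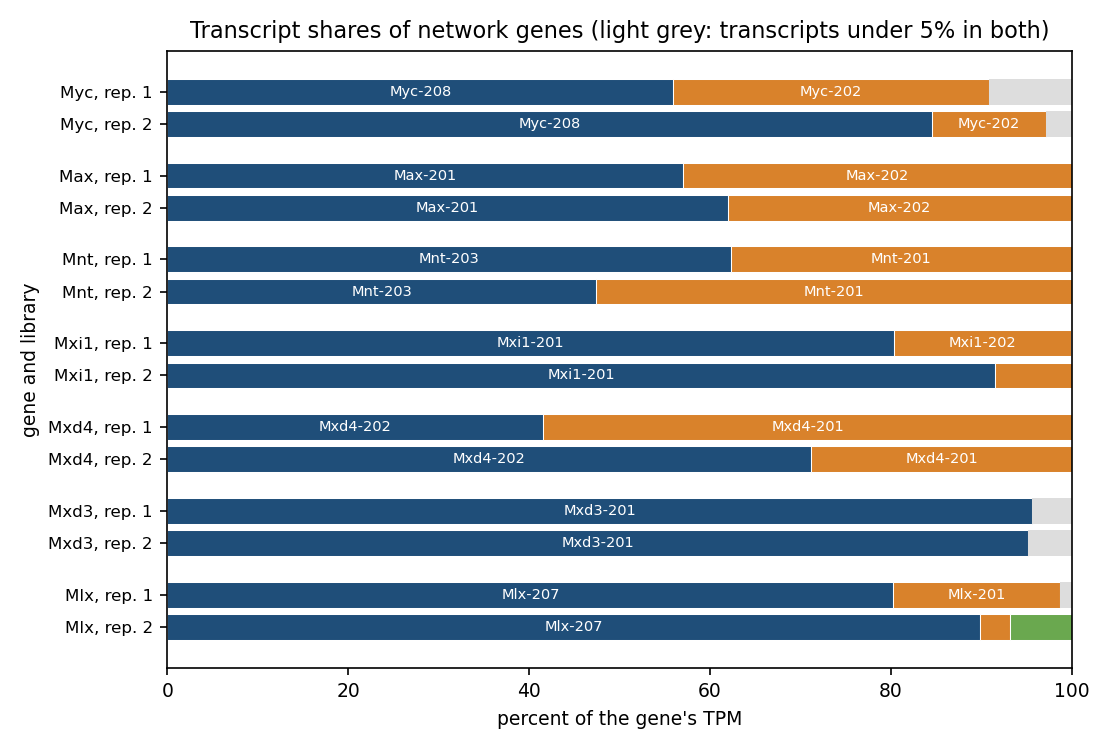
Percent of each gene's TPM (horizontal axis) held by each transcript, with 1 bar per gene and library for the detected genes with more than 1 transcript; names mark transcripts with a wide enough share, light grey collects transcripts under 5% in both libraries, and green at the right end of the last bar is Mlx-204. Mnt and Mxd4 are the genes whose widest segment differs between replicate 1 and replicate 2.

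The Mnt level was divided between a coding and a noncoding model. Mnt-203, a retained-intron transcript of 777 bases with no coding sequence, held 62.4% of Mnt TPM in replicate 1 (37.3 TPM) and 47.4% in replicate 2 (51.6 TPM). Mnt-201, the full coding transcript of 4590 bases, held 37.7% in replicate 1 (22.5 TPM) and 52.6% in replicate 2 (57.3 TPM). The coding level of Mnt was thus 37.7% and 52.6% of its gene level, and no other repressor gene had less than 95.1% of its TPM in coding models. As a share of counts Mnt-203 was 18.9% in replicate 1 and 11.6% in replicate 2, since the short model turns few reads into many TPM. Whether those reads come from the retained-intron transcript or from unspliced Mnt RNA cannot be told apart in these tables.

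The Mxi1 transcripts begin at separate first exons. Mxi1-201 starts at the upstream exon, which holds 274 coding bases, against 73 in the first exon of Mxd1-201, while the first exon of Mxi1-202 holds no coding bases and its coding begins at 53331386, in a later exon. Mxi1-203 starts close to Mxi1-202 and has 73 coding bases in its first exon. RefSeq gives the upstream and the next start of Mxi1 18907 bases apart. The last 100 bases before each are shown (RefSeq, GRCm38.p6, plus strand), because the Mxi1-201 and Mxi1-202 models begin just after them.
Mxi1 upstream start (chr19:53310406-53310505): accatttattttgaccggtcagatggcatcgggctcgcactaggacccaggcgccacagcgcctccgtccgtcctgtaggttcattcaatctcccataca
Mxi1 next start (chr19:53329313-53329412): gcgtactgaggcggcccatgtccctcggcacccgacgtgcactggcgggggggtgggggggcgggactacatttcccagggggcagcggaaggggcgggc
The annotated first base of Mxi1-201 lies 12 bases after the upstream RefSeq start and that of Mxi1-202 lies 45 bases after the next start, while Mxi1-203 begins at that start itself. Mxi1-201 held 80.4% of Mxi1 TPM in replicate 1 (25.9 TPM) and 91.5% in replicate 2 (48.9 TPM). Mxi1-202 held 19.6% in replicate 1 (6.30 TPM) and 8.46% in replicate 2 (4.52 TPM), and Mxi1-203 held 0.07% in replicate 1 and 0% in replicate 2. The transcript from the upstream exon was the main form in both libraries, and since the Mxi1 models are close in deposited length (5156 and 4996 bases), its share of counts was nearly the same, at 80.9% in replicate 1 and 91.8% in replicate 2. The lengths deposited for 8 of the 37 member transcripts, Mxi1-201 among them, differ from those of the later annotation used here for positions, which gives Mxi1-201 as 2627 bases.

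Mxd1 had 1 transcript in the tables, Mxd1-201. Mxd3-201 held 95.7% of Mxd3 TPM in replicate 1 and 95.1% in replicate 2. The last exon of Mxd3 shares 105 bases with Prelid1, on the opposite strand, which was far more abundant (731 TPM in replicate 1 and 319 TPM in replicate 2). No source used here says whether the counting used strand, and without it reads from a gene and its antisense partner cannot be told apart, so the low level of Mxd3 is uncertain to that extent. The deposited count of Mxd3 carried a posterior SD of 0 in both libraries. Mxd4 overlaps the antisense gene Gm42846 over 514 bases, a stretch that Mxd4-201 reaches and Mxd4-202 does not. Gm42846 had no value here, and without strand its reads could count towards Mxd4 and the share of Mxd4-201. Mxi1 overlaps Gm10197, which had 0 counts, over 194 bases.

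Mlx, the second partner, measured 17.5 TPM in replicate 1 (15.4 to 19.6, 673 counts) and 15.3 TPM in replicate 2 (10.3 to 19.5, 58 counts), and lies on chromosome 11 (101087277 to 101092207, plus strand). Most of this level lay in Mlx-207, a model of 403 bases whose coding sequence is incomplete at its end: 80.3% of TPM in replicate 1 (14.1 TPM) and 89.8% in replicate 2 (13.7 TPM). Mlx-201, the longest coding model, held 18.4% in replicate 1 (3.23 TPM) and 3.30% in replicate 2 (0.50 TPM), and the noncoding Mlx-204 held 0% in replicate 1 and 6.87% in replicate 2. The transcripts of Mlx with a complete coding sequence summed to 3.45 TPM in replicate 1 and 0.50 TPM in replicate 2, 19.7% and 3.27% of the gene. By counts Mlx-201 led in replicate 1 with 59.9% and Mlx-207 led in replicate 2 with 72.3%. Mlx shares 385 bases at its 3′ end with Psmc3ip on the opposite strand (22.8 TPM in replicate 1 and 3.27 TPM in replicate 2), a stretch that Mlx-207 does not reach. Of the 6 members with at least 10 TPM in both libraries and more than 1 transcript, the leading transcript by TPM differed between the libraries in 2, Mnt and Mxd4, against 32.3% of 3060 such genes. By share of counts, a measure chosen after seeing the data, the 2 were Mlx and Myc instead, against 31.5% of the same genes, so which members changed their leading form depended on whether length was divided out.

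Mlx stood well under Max, at a log2 ratio of -2.99 ± 0.73, with Max 5.57 times Mlx in replicate 1 and 11.4 times in replicate 2. The size of this gap depended on the scale: Max was 18.2 times Mlx in replicate 1 and 61.5 times in replicate 2 by TMM-scaled CPM, and 27.6 times in replicate 1 and 292 times in replicate 2 over transcripts with a complete coding sequence, a setting chosen after seeing the data. Of the dedicated partners of MLX, Mlxip measured 18.6 TPM in replicate 1 and 28.8 TPM in replicate 2, and Mlxipl was at 0 in both. Mga, a large MAX partner that can repress E-box genes, measured 0.89 TPM in replicate 1 and 1.93 TPM in replicate 2.

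Summed TPM of the repressor genes exceeded that of the MYC genes in both libraries. The activators, which is to say Myc alone, summed to 88.9 TPM and the 5 repressors to 159 TPM in replicate 1. In replicate 2 the activators summed to 165 TPM and the repressors to 219 TPM. The repressors were 1.78 times the activators in replicate 1 and 1.33 times in replicate 2, a log2 ratio of activators over repressors of -0.83 in replicate 1 and -0.41 in replicate 2, with a mean of -0.62 ± 0.30 (SD, n = 2). The direction was the same in both libraries, with a pseudocount of 0.1 TPM on each sum.

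Per length, on the TPM scale, no single repressor gene was above Myc. Myc exceeded Mnt by 1.49 times in replicate 1 and 1.51 times in replicate 2, Mxi1 by 2.76 times in replicate 1 and 3.08 times in replicate 2, and Mxd4 by 2.98 times in replicate 1 and 5.59 times in replicate 2. It exceeded Mxd1 by 3.26 times in replicate 1 and 7.31 times in replicate 2, and Mxd3 by 9.15 times in replicate 1 and 30.2 times in replicate 2. Over coding transcripts alone, Myc was 3.94 times Mnt in replicate 1 and 2.87 times in replicate 2. TMM-scaled CPM is not divided by length, and on that scale Myc (119 in replicate 1 and 201 in replicate 2) stood under Mxi1 in both libraries (136 in replicate 1 and 248 in replicate 2) and under Mnt in replicate 2 only (105 in replicate 1 and 268 in replicate 2). By TPM, the larger repressor sum came from adding 5 genes. Mnt held 37.7% of repressor TPM in replicate 1 and 49.6% in replicate 2, Mxi1 held 20.3% in replicate 1 and 24.4% in replicate 2, and Mxd4 held 18.8% in replicate 1 and 13.4% in replicate 2. Mxd1 held 17.2% in replicate 1 and 10.2% in replicate 2, and Mxd3 held 6.07% in replicate 1 and 2.44% in replicate 2. Without Mnt the log2 ratio of activators over repressors was -0.15 in replicate 1, where Myc at 88.9 TPM stayed under a repressor sum of 98.9 TPM, and 0.57 in replicate 2, where Myc at 165 TPM stood above a repressor sum of 111 TPM. The direction thus turned in replicate 2 only, and the mean of 0.21 ± 0.51 was less than its spread.

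**Figure D3:**
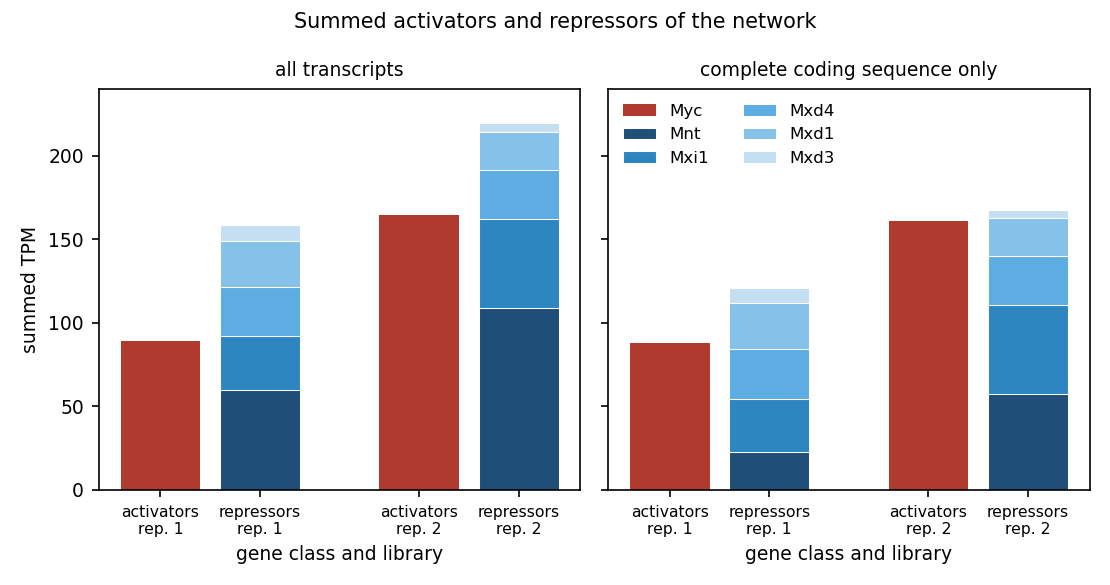
Summed TPM (vertical axis) of the activators, which are Myc alone, and of the stacked repressor genes in replicate 1 and replicate 2; the left panel counts all transcripts and the right panel counts transcripts with a complete coding sequence. The repressor bar is the taller of the pair in each library, and in the right panel of replicate 2 the bars differ little (161 TPM against 168 TPM).

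The balance narrowed when transcripts that encode no protein were left out. Over protein-coding transcripts, the log2 ratio of activators over repressors was -0.44 in replicate 1 and -0.02 in replicate 2, with a mean of -0.23 ± 0.30, which is less than its spread. Counting only transcripts with a complete coding sequence, a setting chosen after seeing the data, activators summed to 88.1 TPM and repressors to 121 TPM in replicate 1, and to 161 TPM and 168 TPM in replicate 2, a mean log2 ratio of -0.26 ± 0.28. Mnt then held 18.6% of the repressor sum in replicate 1 and 34.2% in replicate 2. The activator sum was barely touched, since 99.0% of Myc TPM in replicate 1 and 97.6% in replicate 2 lay in complete coding models. Over the 10 members together, protein-coding transcripts held 89.6% of TPM in replicate 1 and 90.8% in replicate 2.

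Max, which both sides share, was less abundant than its possible partners together. The sum of activators and repressors was 2.52 times Max in replicate 1 and 2.19 times in replicate 2, a log2 ratio of Max over that sum of -1.23 ± 0.14. Against the repressors alone the log2 ratio of Max was -0.69 in replicate 1 and -0.32 in replicate 2, with a mean of -0.51 (-1.30 by TMM-scaled CPM). Over protein-coding transcripts that ratio was -0.30 in replicate 1 and 0.06 in replicate 2, so its direction differed between the libraries. These are ratios of RNA, and the protein amounts were not measured.

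Between the libraries, the 8 detected members fell into a group higher in replicate 2 and a group close to equal or higher in replicate 1. On TMM-scaled CPM, the log2 ratio of replicate 1 over replicate 2 was -1.35 for Mnt, -0.98 for Max, -0.86 for Mxi1 and -0.76 for Myc. It was 0.15 for Mxd1, 0.42 for Mxd4, 0.68 for Mxd3 and 0.79 for Mlx. None of the 8 was at least 2-fold higher in replicate 1, against 30.0% of 8884 tested genes, and 1, Mnt, was at least 2-fold higher in replicate 2, against 17.9%. The Mnt ratio was -0.95 under total counts and -0.86 by TPM, so this call was lost on both scales. Under total counts the members past 2-fold were instead Mxd3 (1.08) and Mlx (1.19), both higher in replicate 1. With 1 library a side these ratios have no replicate check.

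The 4 genes higher in replicate 2 remained so under DESeq2 size factors, total counts and the ratio of TPM, and the other 4 kept a ratio above 0. The median of all tested genes was itself shifted, by 0.20 under TMM and by 0.28 for the ratio of TPM. Relative to that median, Mnt was at -1.55, Max at -1.18, Mxi1 at -1.07 and Myc at -0.96 under TMM, and Mxd1 lay at -0.05. Mxd4 (0.21 under TMM, -0.26 by TPM) and Mlx (0.59 under TMM, -0.09 by TPM) changed sides of the median with the scale, while Mxd3 stayed above it (0.47 under TMM, 0.55 by TPM). Summed erythroid marker TPM, mostly globin, was 198669 in replicate 1 and 87303 in replicate 2, and its part in these ratios was not tested. The deposited TPM bounds of the 2 libraries did not overlap for 6 of the 8 members, all but Mxd4 and Mlx, against 78.3% of the 7444 genes at 1 TPM in both, so the members differed between the libraries about as often as other genes.

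**Figure D4:**
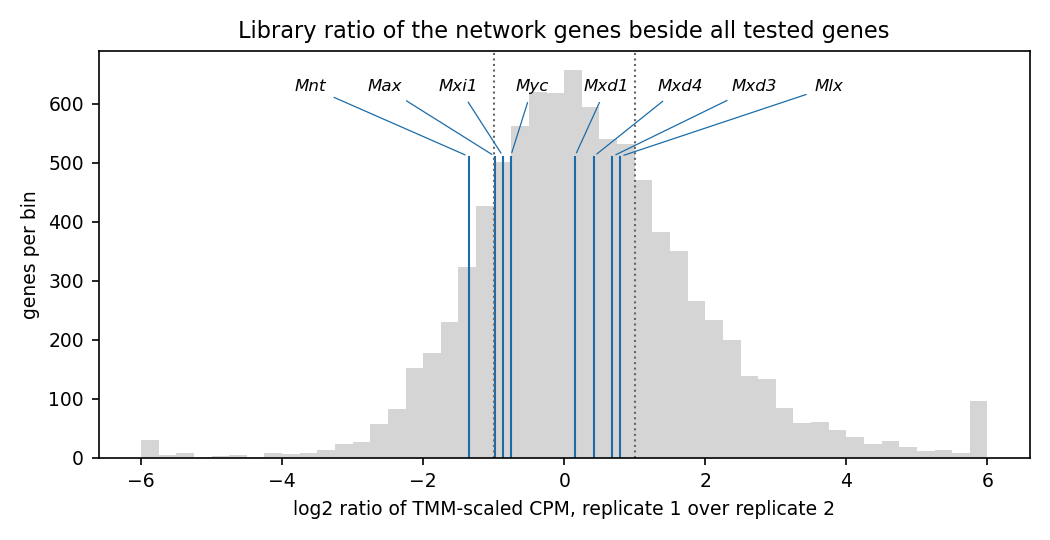
Number of genes (vertical axis) by log2 ratio of TMM-scaled CPM, replicate 1 over replicate 2 (horizontal axis), for the 8884 tested genes in grey, with ratios beyond 6 collected in the end bins; blue lines mark the 8 detected members and dotted lines mark 2-fold. All members but Mnt lie between the dotted lines.

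The other genes of the pathway were read from 8 lists, also chosen with earlier results of these data known. Of their 99 genes, 79 reached 1 TPM in both libraries, against 17.2% of all 43346 genes. List medians are over all genes of the list. The median of the 7444 detected genes was 18.6 TPM, and that of all 43346 genes was 0 TPM. All 14 genes of the SIN3 and histone deacetylase corepressor, through which MXD and MNT proteins repress, were detected, with a median of 19.3 TPM. Sap18 was highest (356 TPM in replicate 1 and 260.3 TPM in replicate 2), followed by Suds3 (51.6 TPM in replicate 1 and 97.8 TPM in replicate 2), and Ing2, a subunit that reads methylated histone H3, was lowest (3.81 TPM in replicate 1 and 4.27 TPM in replicate 2). Named for their role after their values were seen, the scaffold genes were Sin3b (33.0 TPM in replicate 1 and 27.1 TPM in replicate 2) and Sin3a (3.59 TPM in replicate 1 and 16.4 TPM in replicate 2). Both scaffolds that bind MXD proteins were thus present, Sin3b at the steadier level by TPM only. Estimated counts were 4333 in replicate 1 and 377 in replicate 2 for Sin3b, and 1217 and 183 for Sin3a. Given the 5.09-fold difference in depth, Sin3a was the steadier by counts.

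Of the 10 coactivator genes used by MYC, 9 were detected, with a median of 37.9 TPM. Smarcb1, a subunit of the SWI/SNF remodelling complex that can bind MYC, was highest (114 TPM in replicate 1 and 379 TPM in replicate 2), and Ep400, a remodelling enzyme of the TIP60 complex, followed (114 TPM in replicate 1 and 142 TPM in replicate 2). Ruvbl1, an ATPase of the same complex, was lowest and reached 1 TPM in replicate 1 only (8.05 TPM in replicate 1 and 0.17 TPM in replicate 2, from 3 counts in replicate 2). Of 11 genes that set the stability of MYC protein, 9 were detected, with a median of 24.0 TPM. Gsk3a, a kinase of the type that marks MYC for destruction, was highest (363 TPM in replicate 1 and 538 TPM in replicate 2), Plk1, a mitotic kinase that can stabilise MYC proteins, followed (161 TPM in replicate 1 and 126 TPM in replicate 2), and the ubiquitin ligase gene Skp2 was lowest (0.56 TPM in replicate 1 and 0.32 TPM in replicate 2).

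Of 4 genes for other binding partners of MYC, 2 were detected, with a median of 12.7 TPM. Zbtb17, which encodes MIZ1, the factor through which MYC represses some promoters, measured 38.4 TPM in replicate 1 and 41.3 TPM in replicate 2. Mycbp2, a very large ubiquitin ligase first found as a MYC-binding protein, measured 14.0 TPM in replicate 1 and 20.6 TPM in replicate 2, and Bin1, an adaptor that can bind MYC, measured 0.01 TPM in replicate 1 and 0.40 TPM in replicate 2. Of 10 genes for other factors that bind E-boxes, 6 were detected, with a median of 9.48 TPM. Usf2 was the highest of these and stood above Myc and Max in both libraries (237 TPM in replicate 1 and 449 TPM in replicate 2), while Tfe3 did so in replicate 1 only (147 TPM in replicate 1 and 113 TPM in replicate 2). Mitf was at 0 in both.

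Of 39 genes generally known as activated by MYC, 34 were detected, with a median of 31.3 TPM, 31.5 TPM in replicate 1 and 34.6 TPM in replicate 2. Ptma, which encodes the chromatin protein prothymosin alpha, was highest (8254 TPM in replicate 1 and 26604 TPM in replicate 2), and Ran, the nuclear transport GTPase, followed (1944 TPM in replicate 1 and 2201 TPM in replicate 2). Tert, the telomerase catalytic subunit, was listed at 0 TPM in both. Of 8 genes known as repressed by MYC, 4 were detected and the other 4 (Ndrg1, Ndrg2, Cebpa and Cdkn2b) were at 0 in both libraries. Gadd45a, a growth arrest gene, measured 245 TPM in replicate 1 and 70.9 TPM in replicate 2, and Cdkn1b, the cell cycle inhibitor p27, measured 128 TPM in replicate 1 and 160.4 TPM in replicate 2. Genes of both lists were therefore expressed, and without untreated cells these levels do not say which way either list moved.

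The network's own E-box, CACGTG, was sought in the 250 bases before each RefSeq start on both strands, together with the GATA motifs AGATAA and TGATAA. Of the members, 9 had a promoter in the table, 11 promoters in all, and Myc had none there. CACGTG was found in 3 of the 11, against 6.02% of 32851 promoters: Mnt at -123 from the start, Mxd4 at -219 and Mlx at -40. AGATAA or TGATAA was found in 0 of the 11, against 16.6% of all promoters, and so in neither of the printed Mxi1 stretches. A match is only a string of letters, and its absence says only that these letters are not in this window.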

How the data were processed

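Gene and transcript tables of 2 polyadenylated RNA libraries of 1 group were used. Per the labels, values refer to mm10; a deposited text names GENCODE M4 and transcriptome alignments. Not given in the sources used here: aligner, quantification tool, strand use. The deposited estimated counts need not be whole. The deposited TPM and FPKM values are corrected for effective length, and the deposited percent is each transcript's share of its gene's TPM. The credibility bounds and posterior SD are scores taken as the authors deposited them. Entries that are not genes (3 counts in replicate 1 and 0 in replicate 2) were left out.

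Symbols, exons and transcript sequences came from GENCODE M21, matched by identifier without its version, and promoters from RefSeq (GRCm38.p6). Detected means 1 TPM or more in each library. Ratios of summed TPM used a pseudocount of 0.1. For ratios between libraries, rounded estimated counts received TMM factors from edgeR 4.0.16 (1.15 in replicate 1 and 0.871 in replicate 2) and a prior count of 0.5, over genes whose mean CPM reached 1; no test was run. The step was tested on simulated data. Named were all members, their transcripts with at least 5% of a gene, the 2 highest and the lowest gene of each of the 8 lists, and genes whose exons overlap a member. The members and lists were chosen with earlier results of these data known. Alternatives were posterior means, FPKM, TMM-scaled CPM, DESeq2 1.42.0 size factors, total counts, other minimum levels (0.5 or 5 TPM, 1 FPKM, 10 counts), a pseudocount of 1, a mean CPM of 10 or no filter, a fold of 1.5, coding transcripts only, leaving out Mnt or Mxd3, and leaving out each library. Software: R 4.3.3, Python 3.11.15, matplotlib 3.10.9, pandas 2.3.3, scipy 1.17.1, numpy 2.4.6.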

Additional observations from a re-analysis of the deposited data

How the results depend on the processing

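No paired analysis was possible because the labels give 1 group. The mean log2 ratio of activators over repressors, -0.62 by TPM, was -1.78 by TMM-scaled CPM, which does not divide by length and so weighs the long Mxi1, Mxd1 and Mnt transcripts more. It was -0.23 over protein-coding transcripts and -0.26 over transcripts with a complete coding sequence (chosen after seeing the data), and its mean was 0.21 without Mnt, with the direction kept in replicate 1 (-0.15) and turned in replicate 2 (0.57). By TMM-scaled CPM the log2 ratio of Myc over Mnt turned to -0.12 and that of Myc over Mxi1 to -0.25. Leaving out each library gave a balance of -0.83 to -0.41, a summed member level of 363 to 575 TPM, 8 members detected with either library alone and 80 to 85 of the list genes detected.

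The count of members at least 2-fold apart between the libraries was 1 of 8 under TMM, against 47.9% of all tested genes. It was 2 under DESeq2 size factors (both higher in replicate 2, against 47.9%), 2 under total counts (both higher in replicate 1, against 50.5%) and 0 by the ratio of TPM (against 48.9%). At 1.5-fold it was 6 (2 higher in replicate 1 and 4 in replicate 2), against 67.9% of all tested genes. Complete coding transcripts held 86.6% of member TPM, against 90.2% for all protein-coding ones (the first chosen after seeing the data). The number of members detected was 8 at each minimum tried (0.5 and 5 TPM, 1 FPKM, 10 counts) and by posterior mean.

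Depth limits Mlx and Mxd3 most in replicate 2, with 58 and 73 counts, and Mycn and Mycl, where 0 counts in replicate 2 allow up to 0.217 CPM. Shares of transcripts depend on models of unequal length, as for Myc, Mnt, Mxd4 and Mlx.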
